A study of Mus musculus with 22 samples.

Results

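Cytosolic ribosomal protein genes were followed through 22 RNA-seq libraries of mouse duodenal organoids exposed or not to cold atmospheric plasma (CAP), an ionised gas that carries short-lived and long-lived reactive oxygen and nitrogen species. Members were chosen by symbol alone, as rows named Rpl or Rps followed by a number (with a closing a, x, l or l1 allowed) together with Rplp0, Rplp1, Rplp2 and Rpsa. This gave 85 of the 52636 genes in the table, of which 52 carry large-subunit and 33 small-subunit names. The organoids are epithelial cultures grown in a gel from intestinal crypts of wild type adult CD1 mice, an outbred strain, aged 2 months, and each line came from a single mouse. The untreated group held 4 lines (lines 1 to 4), and each of the 6 treated groups held lines 1, 2 and 4. CAP was given at 50 W for 60 s, and by the study's design all cultures were collected at day 3 after replating. In the direct groups the jet reached the organoids themselves at day 1, and fresh medium followed after 30 min (direct 30 min) or 24 h (direct 24 h). For direct 30 min the study also writes of changes seen 30 min after treatment, so its time of collection is uncertain. In the indirect groups fresh organoids received medium taken from CAP-treated cultures. In the PAM groups they received plasma-activated medium that had been treated without cells. In either case exposure lasted 24 h, from day 1 or from day 2. From day 1 the medium was freshly made, and fresh culture medium followed from day 2 until collection. From day 2 the medium was that made at day 1, and it stayed until collection at day 3. Start day, age of the medium and time after exposure thus cannot be told apart. The study's schedule was used for the indirect and PAM exposures. The sample labels give 30 minutes for the groups called here from day 1 and 24 hours for those called from day 2. Passage also went with the line, since the labels give passage 12 for line 1, 14 for line 2 and 4 for lines 3 and 4. By the study's list of lines, matched here by passage, lines 1 and 2 came from male mice. Lines 3 and 4, listed there at passage 2, came from female mice.

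Each value is a read number scaled to 20 M reads per library, so it is a relative level and not a count, and it is not divided by gene length unless stated. Read numbers estimated from the scaling ran from 20.2 M to 28.7 M per library. The labels call the cells stem cells, and the stem cell genes Lgr5, Olfm4, Smoc2, Axin2 and Ascl2 had summed values of 32557 to 38876 in the untreated libraries. Goblet, Paneth and enterocyte genes were also present there, and the 6 fibroblast and muscle markers each averaged under 10 over all libraries.

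The ribosome reads messenger RNA into protein, and its small subunit decodes the message while its large subunit joins the amino acids. Most ribosomal proteins are needed in equal numbers, and messages of the family are among the most abundant in growing cells such as those of the intestinal crypt. Many of these messages begin at a C followed by an unbroken run of pyrimidines (C or T in the DNA), the terminal oligopyrimidine tract, through which the growth kinase mTOR and the RNA-binding protein Larp1 control their translation and stability. Some ribosomal proteins also act outside the ribosome, and Rpl5, Rpl11 and Rpl23 can bind Mdm2, the protein that marks p53 for destruction.

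The bases around the transcription start are given here for members on which the later comparisons turn and for the members with some of the longest runs of C or T. Each line holds the 15 bases before and the first 15 bases of the first RefSeq transcript (GRCm38.p6), read 5′ to 3′ on the strand of the gene, with the longest run of C or T in capitals.
Rpl7a (chr2:26910792-26910821, plus strand): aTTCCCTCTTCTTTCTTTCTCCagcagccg
Rpl15 (chr14:18270972-18271001, minus strand): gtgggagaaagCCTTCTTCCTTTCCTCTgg
Rps6 (chr4:86857353-86857382, minus strand): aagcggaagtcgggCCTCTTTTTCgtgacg
Rplp2 (chr7:141447636-141447665, plus strand): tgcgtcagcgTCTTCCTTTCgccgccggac
Rpl22l1 (chr3:28805493-28805522, plus strand): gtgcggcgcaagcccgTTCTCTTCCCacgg
Rps27 (chr3:90213634-90213663, minus strand): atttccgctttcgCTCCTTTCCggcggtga
Rps27l (chr9:66946071-66946100, plus strand): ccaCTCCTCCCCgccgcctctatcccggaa
Rpl13 (chr8:123102335-123102364, plus strand): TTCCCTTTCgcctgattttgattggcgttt
Rps21 (chr2:180257364-180257393, plus strand): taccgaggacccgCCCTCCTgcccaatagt
Rpl36a (chrX:134585639-134585668, plus strand): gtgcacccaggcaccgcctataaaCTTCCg
Rpl5 (chr5:107900513-107900542, plus strand): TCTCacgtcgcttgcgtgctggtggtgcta
Rpl22 (chr4:152325711-152325740, plus strand): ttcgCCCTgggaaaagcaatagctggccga

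Of the 62 members with a start in that table, 31 held a run of 7 or more C or T in this 30-base window, against 18.5% of all 27025 genes of the table and 15.9% of 69 genes of the mitochondrial ribosome. A run of 10 or more stood in 17 members (27.4%) and in 5.19% of all genes. The strand was that of the gene, and the windows follow the annotated start, so Rpl5 and Rpl22 carry only a run of 4 there. Runs that end before the start, as those of Rpl13 and Rps27l do, are not part of the message but are counted here all the same.

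The members lie on 19 chromosomes, and GENCODE vM21 (GRCm38) lists 82 of them as protein coding. The other 3, Rpl6l, Rps12l1 and Rps4l, are listed as processed pseudogenes, and that of Rps4l as transcribed. Pseudogenes copied from these messages are many, and 64 of the 85 members share over 10% of their 100-base windows with another gene, 24 of them over 50%. Values of those members are therefore uncertain to the extent that reads could be placed on a copy. The expressed members without any shared window, among them Rpl22, Rps21, Rps27l and Rps3, serve below as members less open to this limit.

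Per kilobase of exon, the highest untreated levels were those of Rplp1 (23739), Rplp0 (17890), Rpl36 (13505), Rps15 (12675) and Rpl8 (12662). Rplp0 and Rplp1 form, with Rplp2 (3666 per kilobase), the stalk of the large subunit that recruits elongation factors. A total of 81 members reached a value of 10 in at least 3 libraries and were tested. The other 4 were Rpl10l and Rpl39l, known from testis, Rpl3l, known from heart and skeletal muscle, and the pseudogene Rps12l1, none of which exceeded 8 in any library.

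Together the 85 members took 3.09%, 3.59%, 3.37% and 3.23% of the reads in untreated lines 1 to 4 (mean 3.32% ± 0.213, SD, n = 4). With PAM from day 1 the share was 2.29%, 2.37% and 2.47% (mean 2.38% ± 0.0882, n = 3), and all 3 libraries lay below every untreated one. The direct 30 min libraries held 2.81%, 2.82% and 2.16% in lines 1, 2 and 4, and those of direct 24 h 3.34%, 2.55% and 3.68%. Direct 30 min was thus wholly below the untreated range and direct 24 h spread over a wider range than the untreated libraries, with line 2 low and line 4 highest of all. Indirect CAP gave a mean of 2.70% ± 0.220 from day 1 and 2.89% ± 0.203 from day 2, and PAM from day 2 gave 2.72% ± 0.0734 (n = 3 each). Of the 18 treated libraries, 15 had a lower share than every untreated library, and the exceptions were direct 24 h in lines 1 and 4 and indirect from day 2 in line 4. Counting the 6 ribosomal proteins that the names miss moved the shares of PAM from day 1 and from day 2 to 2.47% and 2.82%. In whole organoids, fewer cells of a type with many ribosomes and less of these messages in each cell cannot be told apart.

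PAM from day 1 gave the clearest result. Of the 81 members tested, 73 fell and none rose at an adjusted p under 0.05 (limma's moderated test across all genes, Benjamini-Hochberg), where 26.6% of all 17357 genes tested fell and 15.2% rose. The median log2 fold change was -0.48 over the members and -0.13 over all genes, and it was 0.02 over 2457 other genes with a mean value of at least 2000. The 3 treated libraries lay below all 4 untreated ones for 75 members, against 29.7% of all genes. Large- and small-subunit members had close medians of -0.45 and -0.50. With the replicate block for organoid line 75 members fell. Here and below, the share of all genes is given only for the main run and for median-of-ratios scaling. Counts under other settings show only how far the calls depend on the setting. Scaling by the median of ratios left 48, where 18.6% of all genes then fell and 20.7% rose.

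The largest called change was that of Rpl36a, a large-subunit protein at the site where spent transfer RNAs leave. Its values were 2895, 3243, 3213 and 3086 in untreated lines 1 to 4 and 1648, 1844 and 1839 with PAM from day 1 in lines 1, 2 and 4. The treated libraries were all far below the untreated ones, and the log2 fold change was -0.81 ± 0.079 (SE, adjusted p = 0.000237). Most of the windows of Rpl36a (83.6%) are shared with copies, so its value carries that uncertainty.

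Rps21 and Rpl22 share no window with another gene. Rps21, of the small subunit, read 2969, 3727, 3404 and 3313 untreated and 1941, 2085 and 2013 with PAM from day 1. Rpl22, a large-subunit protein that can be lost without stopping translation and has a close paralog in Rpl22l1, read 3597, 3908, 3911 and 3863 untreated and 2021, 2544 and 2408 treated. Neither gene overlapped between the groups, and the log2 fold changes were -0.73 ± 0.089 for Rps21 (adjusted p = 0.000571) and -0.72 ± 0.093 for Rpl22 (adjusted p = 0.000704). Rps3, also free of shared windows, fell by 0.48 on the log2 scale (adjusted p = 0.00583). Members with over 50% of their windows shared had a median of -0.48 (n = 23), those with up to 50% a median of -0.47 (n = 53), and the 5 with none a median of -0.48.

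The 3 proteins that can bind Mdm2 fell together. Rpl5, which carries the 5S ribosomal RNA into the large subunit with Rpl11, read 8068, 10205, 9077 and 8624 untreated and 5378, 5397 and 5523 with PAM from day 1. No treated library came near the untreated range, and the log2 fold change was -0.72 ± 0.093 (adjusted p = 0.000684). Rpl11 fell by 0.48 (SE 0.079, adjusted p = 0.00208) and Rpl23 by 0.43 (SE 0.079, adjusted p = 0.00314).

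The stalk proteins Rplp0, Rplp1 and Rplp2 fell by 0.44, 0.45 and 0.50 on the log2 scale (adjusted p = 0.014, 0.0281 and 0.00141). Rplp1 read 10272, 11568, 12794 and 12749 untreated and 7771, 7802 and 10604 with PAM from day 1, so that the treated library of line 4 stood inside the untreated range. Rps6, the small-subunit protein phosphorylated by the S6 kinases, read 6888, 8571, 7204 and 7627 untreated and 5048, 4992 and 5103 treated, with no overlap and a log2 fold change of -0.58 ± 0.090 (adjusted p = 0.00155). The smallest called changes were those of Rps28 (-0.28), Rpl18 (-0.29) and Rpl28 (-0.29).

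Among the 8 members not called with PAM from day 1, Rps27l and Rps4l were the only 2 with a log2 fold change above 0 (0.09 and 0.05). The others were Rpl35a, Rps2 and Rpsa, whose mean changes of -0.85, -0.75 and -0.74 came with large spread between lines, Rpl6l (-0.48, values of 21 to 48 in these libraries), Rpl19 (-0.25) and Rpl29 (-0.21).

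**Figure D1:**
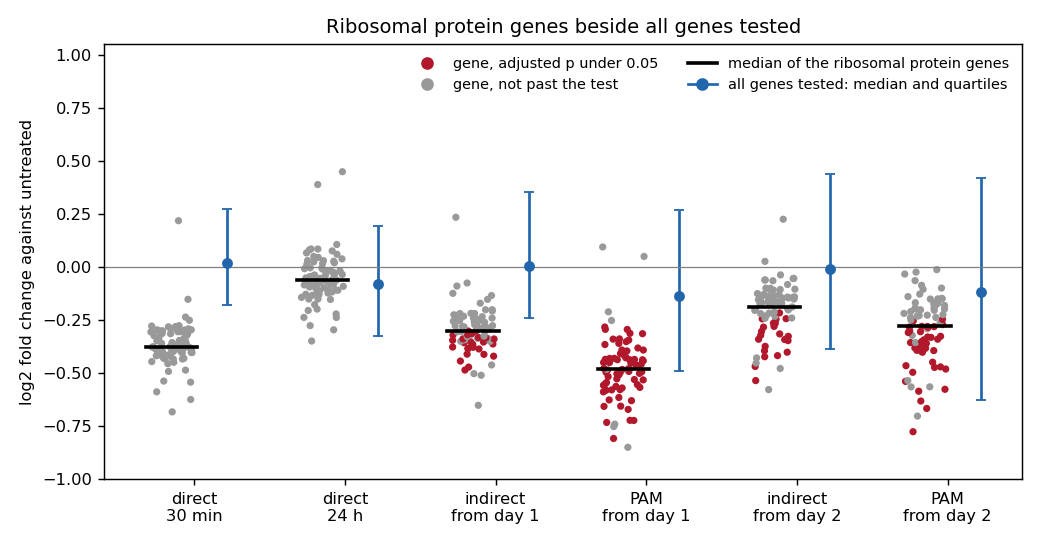
Log2 fold change against untreated (y axis) of the 81 tested ribosomal protein genes in the 6 treated groups, each gene a point that is red where the adjusted p was under 0.05, with the members' median as a bar and the median and quartiles of all genes tested in blue. The members form a narrow cloud below the all-gene median in every group except direct 24 h, and 73 of them are red with PAM from day 1.

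Indirect CAP from day 1, which uses the same exposure window as PAM but with medium taken from cultures, gave fewer calls. A total of 26 members fell and none rose, where 10.4% of all 17818 genes fell and 10.2% rose, and the median was -0.30 over the members and 0.00 over all genes. All 3 treated libraries were below all untreated ones for 56 members, against 17.7% of all genes. The lowest called members were Rpl22 (-0.49 ± 0.072, adjusted p = 0.00687), Rpl22l1 (-0.47 ± 0.104, adjusted p = 0.0192) and Rpl36a (-0.44 ± 0.093, adjusted p = 0.0169). The smallest called changes were those of Rpl23a, Rpl27a and Rps29 (-0.31 to -0.30). The count dropped to 8 with the line as a block, to 7 in a single fit of all 7 groups, to 17 without the filter on low values, and to 3, 8, 4, 2 and 2 without untreated line 2, 3 or 4 or treated line 4 or 2 in turn.

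Direct CAP with medium replaced after 30 min moved the same way in the mean, without a call. None of the 81 members passed the adjusted threshold by limma, and only 1 of 17731 genes did in either direction (0.00564%). At an unadjusted p under 0.05, 71 members were lower, where 11% of all genes were, and all 3 libraries were below the untreated range for 69 members against 11.2% of all genes. The median log2 fold change was -0.38 over the members and 0.02 over all genes. Rpl22 read 2752, 2894 and 2057 in lines 1, 2 and 4, below every untreated library (-0.59 ± 0.118, adjusted p = 0.1), and Rpl22l1 read 1502, 1452 and 1210 against 1784 to 2327 untreated (-0.62 ± 0.117, adjusted p = 0.1). Line 4 was the lowest of these 3 libraries for 78 of the 81 members, as it was for the share.

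Direct CAP with the medium left for 24 h left the members near the untreated level in the median. No member passed by limma, where 17.3% of all 17335 genes did in either direction, and 2 members had an unadjusted p under 0.05 (32.6% of all genes). The median was -0.06 over the members and -0.08 over all genes. Rpl36a read 3045, 2067 and 3294 in lines 1, 2 and 4, so line 2 was below the untreated range and line 4 above it. Rps21 (3311, 2276 and 3620) and Rpl22 (3647, 2482 and 4070) had the same order, and line 2 was the lowest of the 3 for 81 of the 81 members. Only Rpl3, which helps build the peptidyl transferase centre, was below the untreated range in all 3 libraries (12402, 9988 and 12716 against 12852 to 14587), as were 19.1% of all genes, at a log2 fold change of -0.20 ± 0.112 (adjusted p = 0.244).

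When the 9 libraries exposed for 24 h from day 1 (direct 24 h, indirect and PAM) were set together against the 4 untreated ones, 13 members fell and none rose. That share (16.0%) was close to the 18.7% of all 18490 genes that fell (14.8% rose), and the medians were -0.28 and -0.05. The 5 lowest called members were Rpl36a (-0.48 ± 0.160, adjusted p = 0.0339), Rpl22 (-0.47), Rpl5 (-0.44), Rps4x (-0.43 ± 0.120, adjusted p = 0.013) and Rps21 (-0.42), and the highest called ones included Rplp2 (-0.31), Rpl6 (-0.32), Rpl21 (-0.35) and Rpl7l1 (-0.36). Only Rpl3 had all 9 treated libraries below all untreated ones (-0.40 ± 0.119, adjusted p = 0.0185), where 10.5% of all genes did. The count rose to 59 without direct 24 h line 4 and to 34 without direct 24 h line 1, fell to 2, 3, 4 and 6 without untreated line 2, 3, 4 or 1, and was 5 or 6 without direct 24 h line 2, indirect line 4 or any 1 PAM library. It was 3 with the line as a block, 4 with median-of-ratios scaling (where 14% of all genes fell and 18.1% rose) and 5 without the filter. It was 24 with quantile normalization and 48 in a single fit of all 7 groups. No share of all genes stands beside the other settings and left-out libraries, so those counts cannot be set against the background. The 9 treated libraries came from only 3 mice.

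Exposure from day 2 gave medians nearer 0 than the same kind of medium from day 1. The medium given from day 2 was older and stayed until collection, so these differences cannot be told apart from that of start day. With indirect CAP 23 members fell and none rose, close to the 23.5% of all 17860 genes that fell, while 20.3% rose (medians -0.19 and -0.01). With PAM 38 members fell and none rose, where 29.1% of 17694 genes fell and 18.5% rose (medians -0.28 and -0.12). Rpl36a was the lowest called member in both, at -0.53 ± 0.073 (adjusted p = 0.000759) and -0.78 ± 0.126 (adjusted p = 0.00195), and its values of 2269, 2030 and 2139 with indirect CAP and 2069, 1954 and 1477 with PAM lay below all untreated libraries. Rps25, of the small subunit, fell by 0.47 and 0.63 on the log2 scale, and Rps21 by 0.42 and 0.58. Rpl3 read 9149, 8959 and 7362 with PAM from day 2, again below the untreated range (-0.67 ± 0.107, adjusted p = 0.00188). Rpl38, of the large subunit, fell by 0.40 with indirect CAP and by 0.58 with PAM from day 2. The smallest called changes were those of Rps26, Rpl41 and Rpl27a with indirect CAP (-0.22 to -0.24) and of Rps13, Rpl24 and Rplp2 with PAM (-0.25 to -0.27).

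The line block lowered these 2 counts to 12 and 18. Median-of-ratios scaling lowered them to 12 with indirect CAP, where 20.6% of all genes then fell and 23.5% rose, and to 11 with PAM, where 22.8% fell and 24.7% rose. With PAM 11 of 81 is a smaller share than that of all genes. In a single fit of all 7 groups the indirect count was 10, and without the filter the PAM count was 25. The indirect count was 15 without untreated line 2 and 12 without treated line 1 or 2, and the PAM count was 20, 22 and 25 without untreated line 2, 3 or 4 and 23 without treated line 4. All comparisons with untreated share the same 4 control libraries, so the groups are not independent of each other.

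Comparing treated groups with each other called no member when only the libraries of the 2 groups were fitted, without a line block. PAM from day 1 was lower than direct 24 h for 80 of 80 members tested, where 56.1% of all 17072 genes were, with a median of -0.42 against -0.04 over all genes. Of these members 61 had an unadjusted p under 0.05, where 10.4% of all genes did and 0.258% were called by limma. The lowest were Rpl36a (-0.63 ± 0.181, adjusted p = 0.397) and Rps21 (-0.58 ± 0.177, adjusted p = 0.408). Indirect CAP from day 1 was also below direct 24 h for all 80 members tested, where 38.7% of 17672 genes were (median -0.24). There 1 member had an unadjusted p under 0.05, where 6.95% of all genes did and 0% were called by limma. PAM from day 2 was above PAM from day 1 in the median (0.19), with 24 members at an unadjusted p under 0.05, where 26.8% of 17354 genes stood and 0% were called by limma. The highest there were Rpl22l1 (0.64 ± 0.142, adjusted p = 0.0664) and Rpl5 (0.38 ± 0.097, adjusted p = 0.0763). Indirect CAP from day 2 stood 0.09 above indirect CAP from day 1 in the median, with 2 members at an unadjusted p under 0.05, where 21.7% of 17987 genes stood and 3.37% were called in either direction by limma. With the line as a block 1 member was called higher from day 2 than from day 1, with PAM as with indirect CAP. For PAM, a single fit of all 7 groups called 3, and leaving out line 1 from day 2 called 1.

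The changes were small per gene. At the study's own threshold (adjusted p under 0.01 and a log2 change of at least 1 either way) limma called 0 members in any comparison with untreated. Of all genes, 6.34% were called in the pooled comparison, 0.00564% with direct 30 min and 2.17% with direct 24 h. The shares were 1.31% with indirect CAP from day 1 and 10.2% with PAM from day 1. They were 11.9% with indirect CAP from day 2 and 17.3% with PAM from day 2. At an unadjusted p under 0.05, 44 members stood in the pooled comparison, where 44.1% of all genes did. The count was 71 with direct 30 min (24.9% of all genes), 62 with indirect CAP from day 1 (38.6%), 77 with PAM from day 1 (50.5%), 32 with indirect CAP from day 2 (52.1%) and 47 with PAM from day 2 (55.4%).

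Across the 6 treated groups, 17 members were called lower than untreated in 4 groups (indirect and PAM, from day 1 and from day 2), 11 in 3, 14 in 2, 31 in 1 and 8 in none. Over the 18507 genes tested in any of these groups the shares were 5.63% in exactly 4, 6.52% in 3, 7.71% in 2, 9.72% in 1 and 64.9% in none. The counts rest on the same 4 untreated libraries, and median-of-ratios scaling lowered the count of each of these 4 groups, that of indirect CAP from day 1 to 18. The 17 included Rpl3, Rpl6, Rpl11, Rpl15, Rpl22, Rpl27a, Rpl36a, Rpl37a, Rpl39, Rps4x, Rps9, Rps15a, Rps20, Rps21, Rps25 and Rps29, named whatever their size of change. Within a library the members kept close together. The SD of a member's deviation from the library's member median, over the 22 libraries, had a median of 0.079 on the log2 scale, with Rps23 (0.040) and Rps6 (0.041) among the steadiest and Rps4l (3.92), Rpl35a (0.55), Rpsa (0.34), Rps27l (0.29) and Rps2 (0.26) the most variable.

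**Figure D2:**
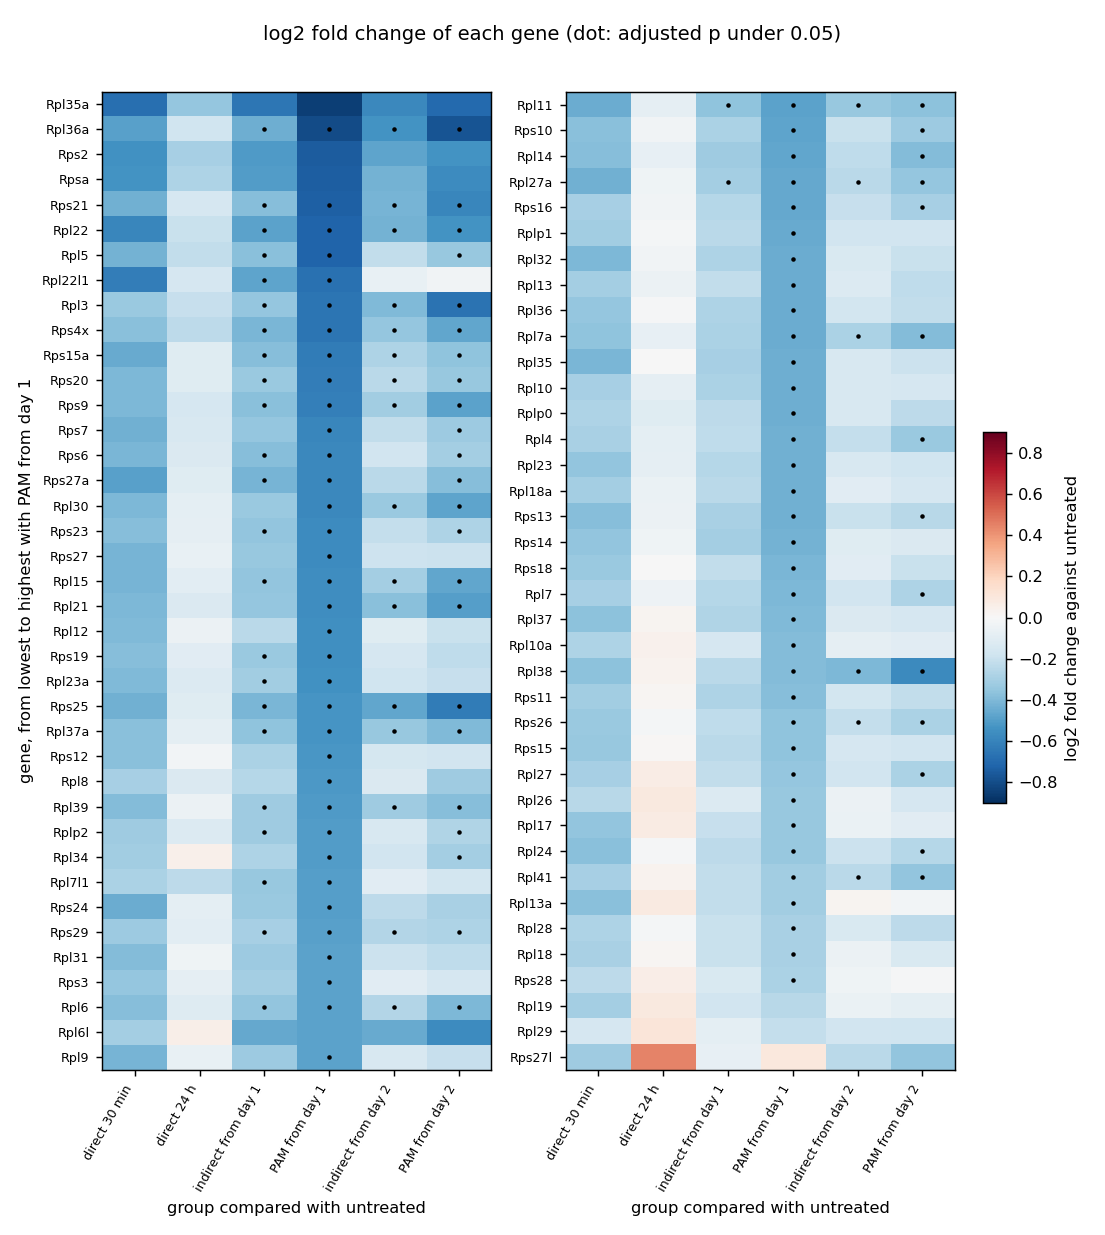
Log2 fold change against untreated of 77 of the 81 tested ribosomal protein genes (rows, ordered by PAM from day 1, split over 2 panels) in the 6 treated groups (columns), without Rps4l for its spread between lines and without 3 genes not reported by name, and with a dot where the adjusted p was under 0.05. Blue covers nearly all cells outside direct 24 h, and Rps27l is the clearest exception, at 0.45 with direct 24 h and 0.09 with PAM from day 1.

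Members with and without a long run of C or T around the start had close medians. With PAM from day 1 the median was -0.48 for the 30 tested members with a run of 7 or more C or T and also -0.48 for the 29 with a shorter run, of which 29 and 25 were called. The windows printed above are a choice of members, so only the medians compare the sets. Printed members with runs of 4 or 5 changed by -0.81 (Rpl36a) and -0.72 (Rpl5 and Rpl22). Those with runs of 7 or more ranged from -0.73 (Rps21) to 0.09 (Rps27l). These are descriptions of annotated starts, and the starts used in the organoids were not measured.

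Members with a close paralog gave 2 pairs whose ratio left the untreated range. Rps27l, which p53 is known to induce and which closely resembles Rps27, read 2138, 2824, 2856 and 2422 in untreated lines 1 to 4, 3965, 2491 and 4230 with direct 24 h and 2650, 3066 and 2460 with PAM from day 1 (lines 1, 2 and 4). It was not called in any group, and its log2 fold changes were 0.45 ± 0.190 with direct 24 h (adjusted p = 0.141), 0.09 ± 0.125 with PAM from day 1 and -0.36 ± 0.146 with PAM from day 2 (adjusted p = 0.0757). Rps27 itself read 3910, 4764, 4167 and 3839 untreated and 2631, 2970 and 2823 with PAM from day 1, and fell by 0.57 on the log2 scale (adjusted p = 0.00223).

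The ratio of Rps27l to Rps27 within a library does not depend on how libraries are scaled, and it was formed after the values had been seen. Rps27 shares 57.9% of its windows with other genes and Rps27l none, so the uncertainty from copies remains. The ratio is given with that limit. It was 0.614 ± 0.0587 (SD, n = 4) untreated, 0.878 ± 0.0774 with direct 24 h and 0.970 ± 0.0866 with PAM from day 1 (n = 3 each), and in these 2 groups every library exceeded every untreated one (exact permutation p = 0.0571 two-sided in each, the smallest that 3 against 4 allows). With indirect CAP from day 1 it was 0.740 ± 0.0870, with 2 of 3 libraries above the untreated range. With exposure from day 2 it was 0.592 ± 0.0485 for indirect CAP and 0.548 ± 0.0434 for PAM, so the higher ratio was not seen there.

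For Rpl22l1 and Rpl22 this was seen in other groups. Rpl22l1 read 1784, 2327, 2225 and 2228 untreated, 1222, 1393 and 1407 with PAM from day 1. Its values with PAM from day 2 were 1755, 2341 and 2195, so it was below the untreated range from day 1 and overlapped it from day 2. It fell with PAM from day 1 (-0.67 ± 0.110, adjusted p = 0.002), and its log2 fold change with PAM from day 2 was -0.03 ± 0.136 (adjusted p = 0.858). Rpl22 fell in both, by 0.72 and by 0.54. Rpl22l1 shares 40.6% of its windows with another gene and Rpl22 none, so the limit of copies holds for this pair too. The ratio of Rpl22l1 to Rpl22, also formed after the values had been seen, was 0.559 ± 0.0436 untreated, 0.579 ± 0.0289 with PAM from day 1, 0.715 ± 0.0189 with indirect CAP from day 2 and 0.797 ± 0.110 with PAM from day 2. Every library of these last 2 groups exceeded every untreated one (exact permutation p = 0.0571 two-sided in each, again the smallest possible). The pair Rpl7l1 and Rpl7 showed no such shift. Their ratio was 0.140 ± 0.0107 untreated and between 0.123 and 0.152 in the group means, with no treated group wholly outside the untreated range.

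**Figure D3:**
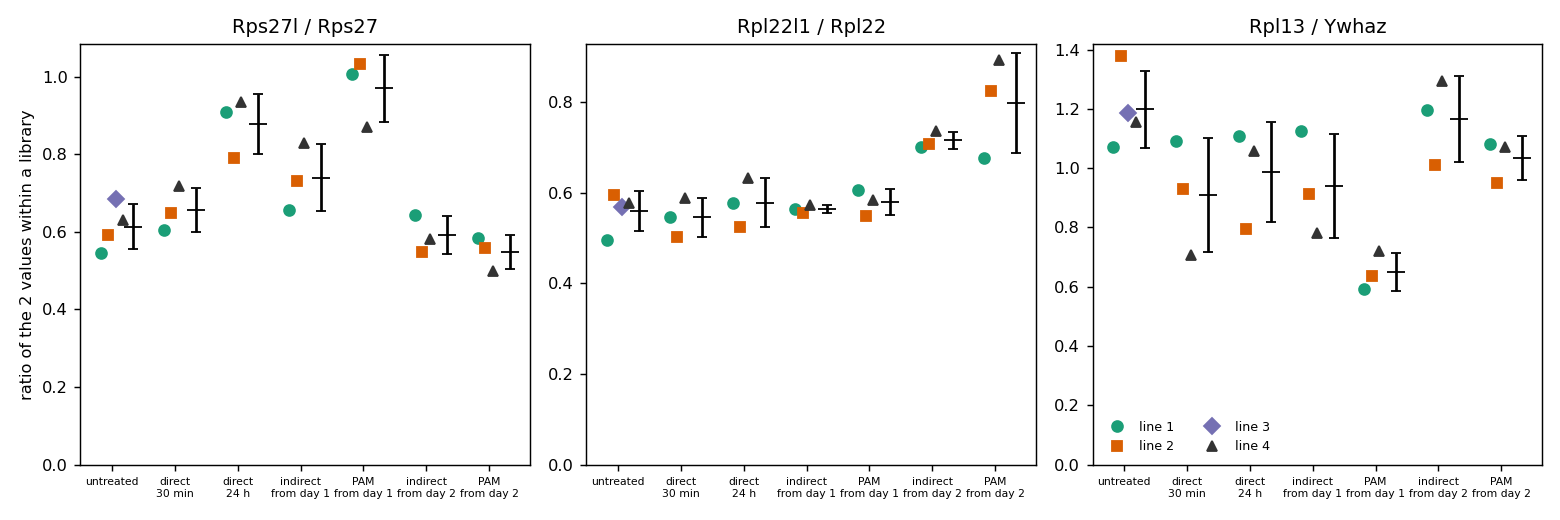
Ratio of 2 values within each library (y axes from 0) for Rps27l to Rps27, Rpl22l1 to Rpl22 and Rpl13 to Ywhaz, by group, with a symbol for each organoid line and the mean ± SD at the right of each group. The first ratio is highest with PAM from day 1 (0.970), the second with PAM from day 2 (0.797), and the last is lowest with PAM from day 1 (0.651).

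Several members had large differences between lines. Lines are single mice, so these values are described without a test, and Rpl35a and Rps2 were picked after the values were seen. Lines 1 and 2 also differ from lines 3 and 4 in sex and passage, so mouse, sex and passage cannot be told apart. Rps4l, the transcribed pseudogene of the small-subunit gene Rps4x (chr6:148354656-148355598, plus strand), read 860 to 1319 in all 7 libraries of line 4, 43 in line 3, 2 to 8 in line 1 and 0 to 3 in line 2. Rpl35a, of the large subunit, read 1584 to 3129 in line 4, 3664 in line 3, and 841 to 1374 in lines 1 and 2, so that line 4 never overlapped these 2. Rpsa, a small-subunit protein also known as a laminin receptor, read 22834 in line 3, 12024 to 19572 in line 4 and 7771 to 13157 in lines 1 and 2. Rps2, at the entry of the messenger RNA channel, read 15062 in line 3 alone and 4570 to 8273 in all other libraries. Line 3 has a single library, so a difference of the line and one of that library cannot be told apart.

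Line 3 has no treated counterpart, so its high values raise the untreated mean of these genes. Within line 4, Rpl35a read 2599 untreated and 1805 with PAM from day 1. Within line 1 it read 1142 and 856, and within line 2 1374 and 841. It was thus lower after PAM in each line, and limma's test across lines did not call it (-0.85 ± 0.433, adjusted p = 0.15). Untreated lines 1 and 2 correlated more with treated lines 2 and 1 than with their own, so this pairing is uncertain. Rpsa went from 10869 to 7930, from 13157 to 7771 and from 17998 to 13152 in lines 1, 2 and 4, with an adjusted p of 0.0628. Rpl35a, Rpsa and Rps2 share 31.9%, 31.1% and 58.5% of their windows with other genes, and the part of such copies in the differences between lines was not tested.

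**Figure D4:**
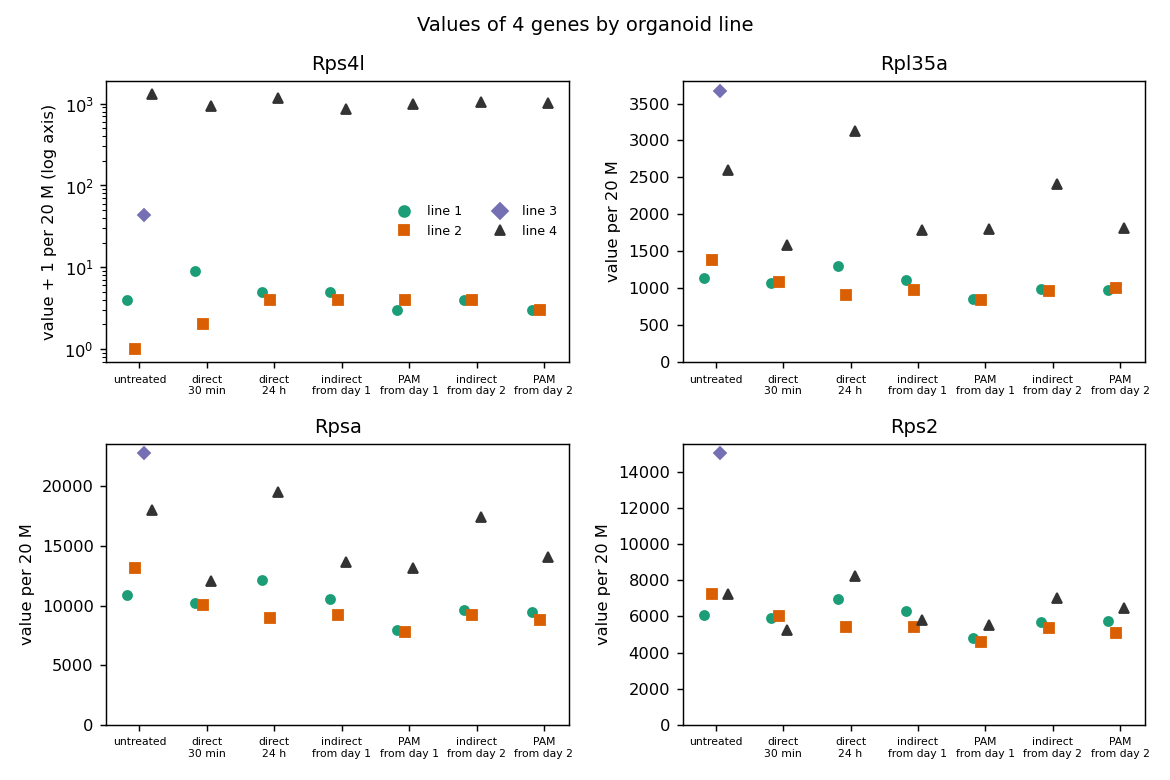
Values per 20 M reads of Rps4l (value + 1 on a log axis), Rpl35a, Rpsa and Rps2 (linear axes from 0) in each library, by group, with a symbol for each organoid line. Line 4 stands apart from lines 1 and 2 in every group for Rps4l (860 to 1319 against 0 to 8) and Rpl35a, and line 3, present only untreated, is highest for Rpl35a, Rpsa and Rps2.

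Rpl13, a large-subunit gene, was with Ywhaz a reference gene of the study's quantitative PCR. That PCR was run on other organoid lines, at a later day and after direct CAP, so the PAM values below are not of its samples. It read 12259, 13441, 11745 and 12020 untreated (12366 ± 747, n = 4) and 8706, 8965 and 9469 with PAM from day 1 (9047 ± 388, n = 3). The groups did not overlap, and Rpl13 fell by 0.45 on the log2 scale (SE 0.082, adjusted p = 0.00328). With PAM from day 2 the change was -0.23 ± 0.087 (adjusted p = 0.0567), and in direct 30 min, direct 24 h and indirect CAP from day 1 and day 2 it was -0.30, -0.05, -0.22 and -0.13, none past the test. Ywhaz, which encodes a 14-3-3 signalling adaptor, moved the opposite way with PAM from day 1, from 10374 ± 774 to 13957 ± 771 (0.43 ± 0.090, adjusted p = 0.00592). The ratio of Rpl13 to Ywhaz was 1.20 ± 0.131 untreated and 0.651 ± 0.0647 with PAM from day 1, and all 3 of those libraries were below the untreated range of 1.07 to 1.38.

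Ribosomal proteins whose symbols fall outside the naming rule were lower in the mean in all 6 cases with PAM from day 1. With PAM from day 1, 3 of 6 fell, namely Rps3a1 (-0.66 ± 0.085, adjusted p = 0.000704), the 40S-bound signalling scaffold Rack1 (-0.47, adjusted p = 0.00655) and Rpl36al (-0.46, adjusted p = 0.00249). Those not called included Fau (-0.30), made as a fusion with a ubiquitin-like protein, and the little expressed Rps27rt (-0.30). In the pooled comparison Rps3a1 and Rpl36al were called. The mitochondrial ribosome, whose proteins are also made in the cytosol, had 59 of 79 genes called lower with PAM from day 1 (median -0.43), where 26.6% of all genes were, and 41 of 79 with indirect CAP from day 1 (median -0.33), where 10.4% were.

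Other genes known for terminal oligopyrimidine tracts, mostly translation factors, fell in part. Of 17, 11 fell and none rose with PAM from day 1 (26.6% of all genes fell) and 8 fell in the pooled comparison (18.7%), with median log2 fold changes of -0.36 and -0.25. The largest changes with PAM were those of the RNA-binding protein Hnrnpa1 (-0.97, adjusted p = 0.000454) and the nucleolar chaperone Npm1 (-0.65, adjusted p = 0.0016), while the elongation factor Eef2 (-0.18, adjusted p = 0.273) and Tpt1 (0.03, adjusted p = 0.828) were not called. Factors of ribosome assembly and ribosomal RNA synthesis fell in 21 of 30 cases with PAM from day 1 (median -0.51) and 22 of 30 with PAM from day 2 (median -0.65), where 26.6% and 29.1% of all genes fell. Dkc1 and Gar1, partners in the particle that modifies ribosomal RNA, fell most with PAM from day 1, by 1.07 and 1.04 on the log2 scale.

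Of 12 genes of the mTOR pathway, 4 rose and 2 fell with PAM from day 1, where 15.2% of all genes rose and 26.6% fell. The share that fell was below that of all genes, and the largest changes were those of Sesn2 (0.93, adjusted p = 0.000674), a stress-induced inhibitor of mTOR, and Eif4ebp1 (0.76, adjusted p = 0.00191), a translation inhibitor that mTOR restrains. Larp1 itself had a log2 fold change of -0.16 (adjusted p = 0.333). Of 8 targets of p53, 7 rose and 1 fell with PAM from day 1, led by Phlda3 (1.71) and Eda2r (1.47), and 6 rose with direct 24 h, where 7.05% of all genes rose and no ribosomal protein gene was called.

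Markers of cell state also moved in these libraries. With PAM from day 1, 26.6% of all genes fell and 15.2% rose, and with PAM from day 2 29.1% fell and 18.5% rose. The 5 stem cell genes all fell with PAM from day 1, where their summed value was 1306 to 2640 against 32557 to 38876 untreated, and all 5 also fell with PAM from day 2 (757 to 2747). Of 18 DNA replication genes, 17 fell with PAM from day 1 and 18 with PAM from day 2, with medians of -1.02 and -2.38. With direct 24 h, 14 of these 18 genes and 4 of the 5 stem cell genes fell, where 10.2% of all genes did. The lists of other cell types are short, and a single gene moves their share by much. Paneth cell genes fell in 3 of 5 cases with either PAM exposure, and 2 of 5 goblet cell genes rose with PAM from day 1 and 3 fell with PAM from day 2. Of the 5 enteroendocrine genes, 2 fell with PAM from day 1, and of the 6 enterocyte genes 1 rose. None of the 2 tuft cell genes tested was called there. Fibroblast and muscle markers summed to at most 30 in any library of the untreated and PAM groups. The share of mitochondrially encoded transcripts was 0.910% ± 0.117 with PAM from day 1 and 1.37% ± 0.135 untreated. The part of these shifts in the levels of the ribosomal protein genes was not tested.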

How the data were processed

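Paired-end RNA-seq of 22 organoid libraries was analysed. Per the labels and the study's methods, the authors trimmed reads with Trimmomatic 0.36, aligned them with STAR 2.5.3a (GRCm38.p4, mm10) and counted genes with HTSeq 0.9.1. The deposited values are a score, the count scaled to 20 M reads per library and rounded up, so whole reads could not be recovered and the true depth was only estimated from the scaling. Groups came from the labels and line numbers from the library titles. Members and gene lists were chosen with earlier results of these data known.

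The moderated test of limma 3.58.1 (trended prior, R 4.3.3) was run on log2(value + 1). It took genes that reached 10 in 3 or more libraries of a comparison, with Benjamini-Hochberg adjustment over all of them and a call at adjusted p under 0.05. Fold changes are on this log2 scale and understate those of low genes. The test was also run on simulated data. Named members were the 5 lowest and highest called in the pooled comparison, the 3 lowest and highest called in others, paralog pairs, stalk proteins, Rpl5, Rpl11, Rpl23, Rps6, Rpsa, Rpl13, the 5 highest per kilobase and the 2 largest changes of a list. A few genes are not reported here by name. Exact permutation tests were two-sided. No 2 libraries of a group were copies, since over all 24 replicate pairs at most 0.627% of values of well expressed genes were identical.

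Libraries with the same line number came from the same mouse, and treated libraries of a line deviated together (median r = 0.564 over 45 pairs, -0.330 between lines). Untreated line 4 followed its line (0.597), but untreated lines 1 and 2 correlated more with treated lines 2 and 1 (0.541 and 0.353) than with their own (0.0751 and 0.132), so the block was kept as an alternative. Of the gene IDs, 99.6% were found in GENCODE vM21, which gave coordinates and exon lengths.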

Additional observations from a re-analysis of the deposited data

Results flagged for a closer look

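In each group of 4 libraries, a library was looked at again where its gap to the nearest other exceeded Dixon's 95% limit of the group's range. Only the untreated group holds 4, and 7 of 79 quantities checked there stood out, where chance gives about 1 in 20. Untreated line 2 was highest for Rpl23 (9336), Rpl35 (5179), Rps28 (3802) and Rps29 (4196), and it also had the highest share of ribosomal protein reads among the untreated libraries (3.59%). Untreated line 1 was lowest for Rpl22 (3597), which still lay above all libraries of PAM from day 1. Untreated line 3 was highest for Rps2 (15062), and untreated line 4 for Rps4l (1319), a gene at 860 or more in every library of that line. These members share a library and are not independent of each other.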

How the results depend on the processing

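No member was called higher than untreated in any run on the full set of libraries, and Rpl13 kept its direction except with direct 24 h (-0.05 as reported), where median-of-ratios scaling gave 0.027 and leaving out treated line 2 gave 0.062. Quantile normalization put PAM from day 2 past the threshold (-0.34). Median-of-ratios scaling raised the median of all genes by 0.14 with PAM from day 1 and 0.15 with PAM from day 2, and the members' medians relative to all genes were -0.34 and -0.16. The study's own threshold (adjusted p under 0.01 and a log2 change of 1) called 0 members in each comparison by limma, against the unadjusted counts in the report.

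No share of all genes stands beside the counts below, so they show only how the calls depend on the setting. Pooled (13 called): quantile normalization gave 24, median-of-ratios scaling 4 and no filter 5. A single fit of all 7 groups gave 48, the replicate block 3 and leaving out a library 2 to 59. Indirect day 1 (26 called): no filter gave 17, all groups 7, the replicate block 8 and leaving out a library 2 to 29. PAM day 1 (73 called): median-of-ratios scaling gave 48 and leaving out a library 69 to 76. Indirect day 2 (23 called): median-of-ratios scaling gave 12, all groups 10, the replicate block 12 and leaving out a library 12 to 23. PAM day 2 (38 called): median-of-ratios scaling gave 11, no filter 25, the replicate block 18 and leaving out a library 20 to 33. Day 2 against day 1 (0 called): the replicate block gave 1 for indirect CAP and 1 for PAM, all groups 3 for PAM, and leaving out PAM day 2 line 1 gave 1. Leaving out direct 24 h line 2 gave 1 member called higher with direct 24 h. Counting the ribosomal proteins outside the naming rule moved the shares of PAM day 1 and day 2 to 2.47% and 2.82%.

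The pooled log2 fold change of Rps4l, 0.22, turned to -0.14 with quantile normalization, -0.59 and -1.26 without untreated line 1 or 2, and -0.47, -0.41 and -0.43 without the line 4 library of direct 24 h, indirect or PAM, and reached 2.19 without untreated line 4. The cause was not tested for any of these. Of 960 values of named members under an alternative, 726 kept direction and side of the threshold, 194 lost the call and 34 gained it. The other 6, all of Rps4l, turned direction. The turns of Rpl13 with direct 24 h, given above, are not in this count.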
